A study of Mus musculus with 15 samples.

Results

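The genes described are those of the cytosolic ribosomal proteins, the protein subunits of the ribosome that translates nuclear-encoded messenger RNA, measured in spleens of leukemic mice. Their probes were chosen by symbol, as Rpl or Rps followed by digits and at most 1 lower-case letter, together with Rplp0, Rplp1, Rplp2 and Rpsa. Ribosomal kinases and other longer names were thereby left out. The rule took 77 of the 25697 probes on the array, which stand for 59 genes of 18115. Of these, 72 probes of 56 genes passed the filter on low signal (a detection p under 0.05 on at least 3 arrays), among 14432 probes of 10474 genes that passed in all. The genes that did not pass were Rpl39l, Rpl3l and Rplp2, and the additional probes of Rps19 and Rps27a also stayed below it.

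All mice carried the Cbx7-overexpression model, in which a Polycomb protein is present in excess, and the series holds no mouse without it. The erythroid leukemias came from 4 mice on 5 arrays, the undifferentiated leukemia from 1 mouse on 1 array and the T-cell leukemias from 7 mice on 8 arrays. Per the labels, RNA came from pellets of unsorted spleen cells, so each sample holds the leukemia together with whatever other cells the spleen still had. The labels give no promoter, vector, age or strain for the model, and a further array without a type label entered no comparison. Nothing in the labels says how far the mice are independent of each other, and p-values measure only the spread between them. The titles of erythroid mice 2-3, 2-3-2 and 2-3-3 begin alike, and no T-cell title begins so. Whether these mice carry related leukemias is not known, and the tests count each mouse as independent. If they are related, the erythroid SDs and p-values rest on fewer separate leukemias than mice.

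A ribosome is built from a small subunit, which reads the messenger RNA and carries the Rps proteins, and a large subunit, which forms the peptide bond and carries the Rpl proteins. Nearly all of these proteins are needed in equal number, and their messenger RNAs are among the most abundant of growing cells. In vertebrates these messages begin with a short pyrimidine run, the 5′ TOP element, through which the TOR pathway adjusts their translation. Red cell precursors depend closely on ribosome supply: in humans, loss of 1 copy of several of these genes causes Diamond-Blackfan anemia, a failure of red cell production.

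The start-site sequences are shown because the genes share features there that the choice by symbol did not use. A table of promoters from RefSeq (GRCm38.p6), each covering 250 bases before to 50 bases after a start, held 57 promoters for 48 of the 59 genes. The motif CCGGAAG, the core bound by ETS factors, was looked for on both strands over the whole 300 bases. It stood in 40.4% of these promoters, against 8.86% of all 32851 promoters of the table. The letters CTTTC, a run of the kind that begins 5′ TOP messages, were looked for on the gene's own strand between 10 bases before and 20 bases after the start. They stood in 21.1% of these promoters, against 3.74% of all promoters. The 2 motifs can overlap by 1 end letter at most, and a match is a description of the letters only. Promoters of 5 genes are printed from 75 bases before to 15 bases after the start, on the gene's strand, with a motif in capitals where it stands. All 5 hold CCGGAAG in this stretch, and only those of Rps10 and Rpl38 also hold CTTTC near the start. Promoters without CCGGAAG, such as those of the lower genes Rpl12 and Rpl27, are not printed, so the 5 do not stand for the family. Rps10, Rps25 and Rpl31 were lower in erythroid leukemias, and Rpl38 and Rpl41 did not pass the test.
Rps10 (chr17:27635230-27635319, minus strand): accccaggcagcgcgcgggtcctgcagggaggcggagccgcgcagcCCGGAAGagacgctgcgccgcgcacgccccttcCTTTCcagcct
Rps25 (chr9:44407639-44407728, plus strand): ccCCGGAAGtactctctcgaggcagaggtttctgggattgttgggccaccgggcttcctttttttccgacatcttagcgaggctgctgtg
Rpl31 (chr1:39367776-39367865, plus strand): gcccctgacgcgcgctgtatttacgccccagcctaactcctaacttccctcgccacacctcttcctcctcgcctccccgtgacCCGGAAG
Rpl38 (chr11:114668505-114668594, plus strand): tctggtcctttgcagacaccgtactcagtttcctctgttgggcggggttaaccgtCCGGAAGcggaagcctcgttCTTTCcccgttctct
Rpl41 (chr10:128549154-128549243, minus strand): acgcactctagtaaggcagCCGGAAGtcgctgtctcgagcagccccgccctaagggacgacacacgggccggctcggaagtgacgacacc
Both motifs were found in genes that were lower and in genes that did not pass. CCGGAAG stood in 50% of the 8 promoters of the lower genes and in 37.8% of the 45 promoters of tested genes that did not pass, and these shares are given without a test.

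Values are normalised log2 signals, with the arrays of 1 mouse averaged, and changes are erythroid minus T-cell unless another pair is named. The erythroid and T-cell labels were checked against marker genes. All 9 measured T-cell markers were lower in the erythroid leukemias, with a mean log2 signal per mouse of 4.85 to 5.95 in erythroid mice, 5.27 in the undifferentiated mouse and 7.41 to 9.58 in T-cell mice. Of 11 erythroid markers 3 were higher, and their mean was 9.96 to 10.72 in erythroid mice, 10.02 in the undifferentiated mouse and 5.75 to 9.97 in T-cell mice. At least 1 T-cell spleen therefore reached the lowest erythroid mouse in erythroid marker signal. Of the other lists, none of 4 B-cell, 7 granulocyte and 6 monocyte markers passed the test by limma (1, 0 and 1 at an unadjusted p under 0.05), and 1 of 6 megakaryocyte markers was higher. Over all genes 6.41% were called lower and 3.86% higher by that test. Fewer cells of a type and less RNA per cell cannot be told apart in such samples, and the part of cell mixture in the results below was not tested.

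Arrays differed in strength, and the difference moved with the type. The arrays detected 10840 to 12944 probes, except for 2 erythroid arrays: that of mouse 2-3-2 detected 7554 and the second array of mouse 5-5 detected 7382. Per mouse, 7554 to 12605 probes were detected in erythroid leukemias, 11699 in the undifferentiated leukemia and 11278 to 12944 in T-cell leukemias. Values without the 2 weak arrays stand below beside each gene that was called and is named.

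As a group, ribosomal protein genes had less signal in erythroid than in T-cell leukemias. The mean log2 signal of the 56 genes was 10.29 in erythroid mouse 2-3, 10.02 in mouse 2-3-3, 9.58 in mouse 5-5 and 9.25 in mouse 2-3-2. It was 10.31 in the undifferentiated mouse and had a lowest, median and highest value of 10.15, 10.32 and 10.54 in the T-cell mice. The erythroid mean was 9.78 ± 0.462 (SD, n = 4), against 10.34 ± 0.132 (SD, n = 7) in T-cell mice. Mouse 2-3 alone lay within the T-cell range, and the other erythroid mice lay below it. The order of the erythroid mice was also the order of their detected probes, which were 12605, 11500, 9481 and 7554. At a like number of detected probes, erythroid mouse 2-3-3 (11500) stood at 10.02, while T-cell mice 2 (11438) and 5-3 (11536) stood at 10.48 and 10.15. At a higher number the gap was absent: erythroid mouse 2-3 (12605) stood at 10.29, and T-cell mice 5-1 (12605) and 2-2 (12547) at 10.29 and 10.27. The part of array strength in the difference was not tested by these values.

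Measures that do not rest on the normalisation between arrays ran the same way. Ranked among all probes of its own array, the median ribosomal protein gene lay at percentile 96.1 to 98.7 in erythroid mice, 99 in the undifferentiated mouse and 98.9 to 99.2 in T-cell mice, with no overlap between erythroid and T-cell mice. The percentile was 98.7, 97.8, 97.3 and 96.1 in mice 2-3, 2-3-3, 5-5 and 2-3-2, again the order of their detected probes. In mouse 5-5 it was 98 on the first array and 96.7 on the second, weak one. The part of array strength in this measure was not tested. The summed intensity of the ribosomal protein probes after background correction was 3.22% to 3.74% of the array's total in erythroid mice, 3.83% in the undifferentiated mouse and 3.6% to 4.66% in T-cell mice. In this share over all the probes, erythroid and T-cell mice overlapped. Rpl23, a large-subunit protein at the face between the subunits, had the brightest probe on each of the 14 labelled arrays. Without the Rpl23 probes the share was 2.19% to 2.82% in erythroid mice, 3.02% in the undifferentiated mouse and 2.91% to 3.57% in T-cell mice. Only with these probes left out did the erythroid and T-cell shares not overlap. The share without Rpl23 was lowest in the mice with the weak arrays, at 2.19% in mouse 5-5 and 2.37% in mouse 2-3-2. The part of array strength in the shares was not tested.

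**Figure D1:**
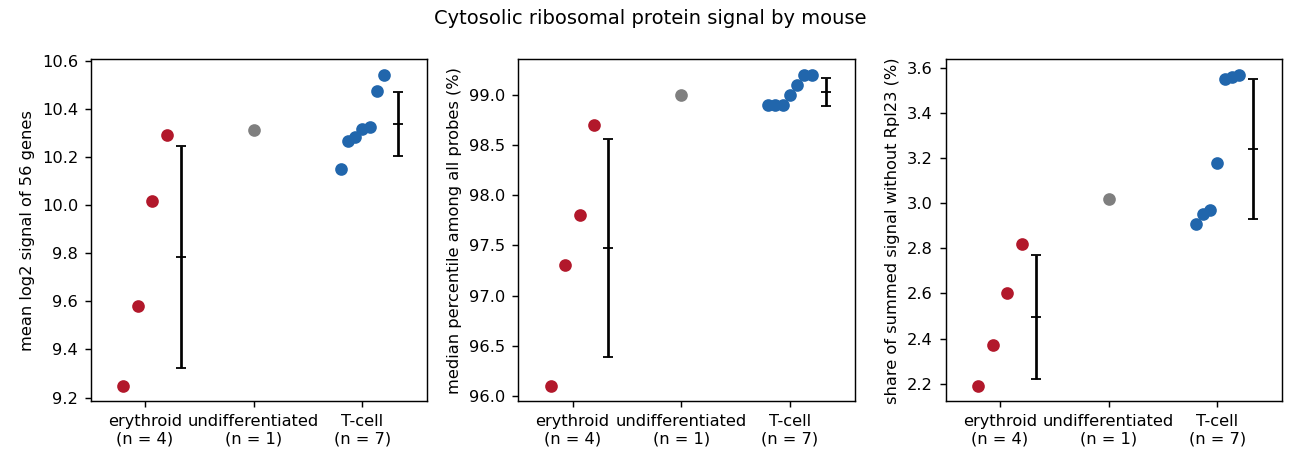
Ribosomal protein signal by mouse in erythroid (n = 4), undifferentiated (n = 1) and T-cell (n = 7) leukemias: mean log2 signal of 56 genes (left), median percentile among all probes of the array (middle) and share of the summed background-corrected intensity in percent, without Rpl23 (right). Each point is 1 mouse, ordered by value within its group, and bars are the mean ± SD. The erythroid mice lie below the T-cell mice in the middle and right panels, and mouse 2-3 at 10.29 overlaps them on the left. With the Rpl23 probes included, the shares of erythroid and T-cell mice overlapped (not shown).

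Gene by gene, 11 of the 56 ribosomal protein genes were lower in erythroid leukemias and 0 were higher, by limma's moderated test with Benjamini-Hochberg adjustment over all 10474 genes at a threshold of 0.05. That is 19.6% of them called lower, where the background over all genes was 6.41% called lower and 3.86% called higher, 10.3% in all. At an unadjusted p under 0.05, 26 of the 56 passed and all 26 were lower, while 28.1% of all genes passed in either direction. The median change was -0.492 for the 56 genes and -0.027 for all genes, and 48 changes lay below 0, 7 above and 1 at exactly 0 (Rpl23). Below 0 lay 51.7% of all genes. Changes ran from -1.82 to 0.475. Both subunits contributed: 5 of 30 Rpl genes were lower with a median change of -0.43, and 6 of 26 Rps genes with a median of -0.526. The number of genes called was unstable. Without the 2 weak arrays it was 1 (Rpl27), against 3.43% of all genes, with the median change at -0.345. It was 0 without T-cell mouse 2, 5 or 4-2 or without erythroid mouse 5-5, and 0 with the number of detected probes as a covariate, where 1.88% of all genes were lower and 11 of the 56 had an unadjusted p under 0.05 by limma. It was 1 without T-cell mouse 4-1 or erythroid mouse 2-3-2, 2 without erythroid mouse 2-3-3, 3 without T-cell mouse 5-3, 7 without T-cell mouse 5-1, 9 without T-cell mouse 2-2 and 17 without erythroid mouse 2-3. The share of all genes called lower moved too, from 3.05% without erythroid mouse 5-5 to 8.53% without erythroid mouse 2-3. The median change stayed between -0.60 and -0.389 when single mice were left out.

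**Figure D2:**
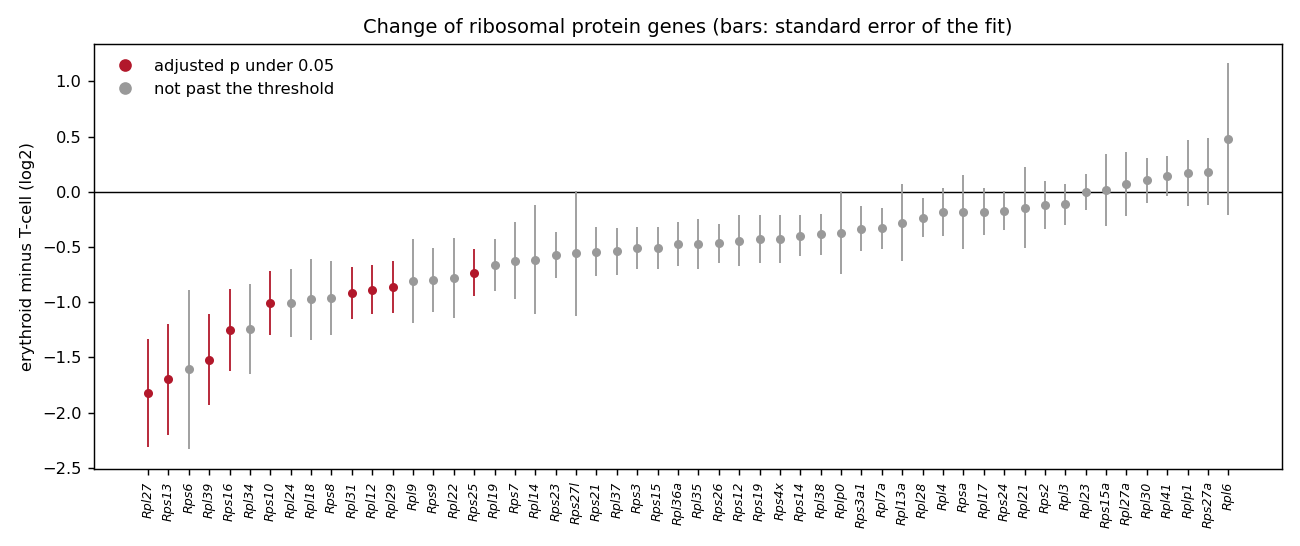
Change of 54 of the 56 tested ribosomal protein genes, erythroid minus T-cell, on the log2 scale, ordered from lowest to highest. Points are the fitted change, bars its standard error, and red marks the 9 of them with an adjusted p under 0.05, all below 0.

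Because these genes are among the brightest, they were also set beside other genes of high signal. Of genes with a mean log2 signal of at least 10, 36 were ribosomal protein genes and 475 were not. In this range 9 of the 36 were lower (25%) and the background over all 511 genes was 5.09% lower and 1.96% higher. The median change of the 36 was -0.51. Of the 475 others 17 were lower (3.58%) and 10 were higher, with a median change of -0.0703. Within the ribosomal protein genes the change was not even over the range of signal. The median change was -0.182 over 12 genes with a mean log2 signal under 9 and -0.995 over 8 genes between 9 and 10. It was -0.805 over 14 genes between 10 and 11, -0.541 over 15 genes between 11 and 12, and -0.115 over the 7 genes above 12. Those above 12 include Rpl23, whose change quantile normalisation fixes at 0. Under median scaling Rpl3 and Rps24 of this group turned to 0.259 and 0.19, while Rpl38 stayed below 0 at -0.124. Genes under 9 include Rpsa and Rpl21, each detected on 2 of 5 erythroid arrays. The uneven course is therefore not read as a property of the genes.

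Mice were also compared without a fit. In 10 of the 56 genes (17.9%) every erythroid mouse lay below every T-cell mouse, and in 0 genes every erythroid mouse lay above. Over all genes these shares were 4.68% and 2.52%. Without the 2 weak arrays the count was 11, against 6.12% of all genes. Taken singly, erythroid mouse 5-5 lay below every T-cell mouse in 43 of the 56 genes, mouse 2-3-2 in 42, mouse 2-3-3 in 30 and mouse 2-3 in 13. Over all genes the same was true of 28.7%, 36.3%, 17.2% and 17.7% in the same order of mice. The median distance from the T-cell mean was -0.8 in mouse 5-5, -0.769 in mouse 2-3-2, -0.393 in mouse 2-3-3 and -0.124 in mouse 2-3.

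The genes called lower on the large subunit come first. Rpl12, at the base of the stalk that recruits translation factors, had log2 signals of 11.43, 11.36, 10.82 and 10.62 in erythroid mice 2-3, 2-3-3, 5-5 and 2-3-2, 11.94 in the undifferentiated mouse, and 11.62, 11.97 and 12.18 as lowest, median and highest of the T-cell mice. All erythroid mice lay below all T-cell mice. The change was -0.888 (SE 0.221, adjusted p = 0.0269 by limma), which is 1.85-fold lower, and -0.589 without the 2 weak arrays (adjusted p = 0.0707 by limma).

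Rpl27 showed the largest fall of the 11. In humans it is among the genes of Diamond-Blackfan anemia. Its signals were 10.81, 9.71, 9.57 and 7.26 in erythroid mice 2-3, 2-3-3, 5-5 and 2-3-2, 10.89 in the undifferentiated mouse, and 10.83, 11.16 and 11.41 as lowest, median and highest of the T-cell mice. The groups did not overlap, but mouse 2-3 came within a few hundredths of the lowest T-cell mouse and mouse 2-3-2 lay far below the rest. The change was -1.82 (SE 0.488, adjusted p = 0.0347 by limma), -1.13 without mouse 2-3-2 (adjusted p = 0.0381 by limma) and -0.933 without both weak arrays (adjusted p = 0.0487 by limma).

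Rpl31 and Rpl39 line the end of the tunnel through which the new protein leaves. Rpl31 had 11.39, 10.49, 10.41 and 10.36 in erythroid mice 2-3, 5-5, 2-3-3 and 2-3-2, 11.82 in the undifferentiated mouse, and 11.23, 11.59 and 11.78 as lowest, median and highest of the T-cell mice. Its change was -0.916 (SE 0.236, adjusted p = 0.0297 by limma), and -0.621 without the 2 weak arrays (adjusted p = 0.117 by limma). Mouse 2-3 fell within the T-cell range and the other 3 erythroid mice lay together below it. Rpl39 had 11.35, 10.39, 10.23 and 8.37 in erythroid mice 2-3, 2-3-3, 5-5 and 2-3-2, 11.50 in the undifferentiated mouse, and 11.32, 11.65 and 11.83 as lowest, median and highest of the T-cell mice. The change of Rpl39 was -1.52 (SE 0.416, adjusted p = 0.0374 by limma), and mouse 2-3 again overlapped the T-cell mice. It was -0.948 without mouse 2-3-2 (adjusted p = 0.0503 by limma) and -0.729 without both weak arrays (adjusted p = 0.0677 by limma).

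Rpl29, which mice can lack at the cost of short stature, had 10.11, 9.97, 9.55 and 9.01 in erythroid mice 2-3-3, 2-3, 5-5 and 2-3-2, 10.54 in the undifferentiated mouse, and 10.29, 10.43 and 10.77 as lowest, median and highest of the T-cell mice. The groups did not overlap, and the change was -0.864 (SE 0.237, adjusted p = 0.0376 by limma). Without the 2 weak arrays it was -0.534 (adjusted p = 0.0928 by limma).

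On the small subunit, Rps10, Rps16 and Rps25 encode proteins of the head, the domain over which messenger RNA and transfer RNA pass. Rps10, a human Diamond-Blackfan gene at the messenger RNA entry side, changed by -1.01 (SE 0.292, adjusted p = 0.0451 by limma). It had 10.25, 9.39, 9.14 and 8.70 in erythroid mice 2-3, 2-3-3, 5-5 and 2-3-2, 9.90 in the undifferentiated mouse, and 9.84, 10.32 and 10.80 as lowest, median and highest of the T-cell mice. Rps10 overlapped the T-cell mice through mouse 2-3 only, and its change was -0.676 without the 2 weak arrays (adjusted p = 0.13 by limma).

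Rps16, whose tail reaches the transfer RNA in the P site, lay at the threshold with a change of -1.25 (SE 0.373, adjusted p = 0.04999 by limma). Its signals were 9.77, 9.27, 8.53 and 7.43 in erythroid mice 2-3, 2-3-3, 5-5 and 2-3-2, 9.78 in the undifferentiated mouse, and 9.58, 10.05 and 10.40 as lowest, median and highest of the T-cell mice. Mouse 2-3 lay within the T-cell range and the other 3 erythroid mice below it. The change of Rps16 was -0.814 without mouse 2-3-2 (adjusted p = 0.11 by limma) and -0.66 without both weak arrays (adjusted p = 0.117 by limma).

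Rps25, a head protein that some viral messages need to start translation, had the least spread of the 11 in erythroid mice. Its signals were 10.39, 10.17, 9.83 and 9.77 in erythroid mice 2-3, 2-3-2, 2-3-3 and 5-5, 11.04 in the undifferentiated mouse, and 10.41, 10.79 and 11.16 as lowest, median and highest of the T-cell mice. The Rps25 groups touched without overlap, and the change was -0.732 (SE 0.216, adjusted p = 0.0493 by limma). It kept nearly that size without the 2 weak arrays, at -0.711, but did not pass (adjusted p = 0.0675 by limma).

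Rps13, of the body of the small subunit, had 10.47, 9.23, 8.90 and 6.79 in erythroid mice 2-3, 2-3-3, 5-5 and 2-3-2, 10.32 in the undifferentiated mouse, and 10.25, 10.50 and 10.97 as lowest, median and highest of the T-cell mice. Its change of -1.7 (SE 0.504, adjusted p = 0.0496 by limma) came with a wide spread in erythroid mice, where mouse 2-3-2 was lowest and mouse 2-3 lay within the T-cell range. It was -1.01 without mouse 2-3-2 (adjusted p = 0.0783 by limma) and -0.801 without both weak arrays (adjusted p = 0.0968 by limma).

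**Figure D3:**
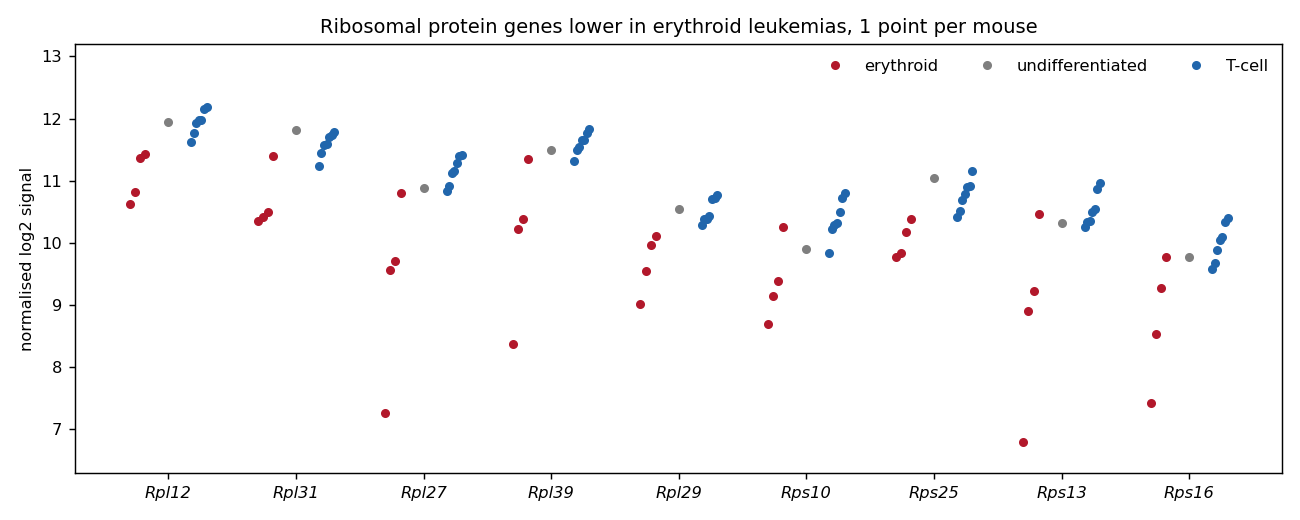
Normalised log2 signal of 9 of the 11 ribosomal protein genes that were lower in erythroid leukemias, 1 point per mouse, ordered by value within each group, for erythroid (red), undifferentiated (grey) and T-cell (blue) mice. In Rpl12, Rpl27, Rpl29 and Rps25 the erythroid mice lie below the T-cell mice without overlap.

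Of the other members, Rpl24 lay just outside the threshold with a change of -1.01 (SE 0.308, adjusted p = 0.0537 by limma). Rps3, Rps26, Rps15 and Rpl38 did not pass although no erythroid mouse reached a T-cell mouse in any of them, with changes of -0.51, -0.466, -0.509 and -0.387. Rps26 had 10.50, 10.47, 10.29 and 10.27 in erythroid mice and 10.60, 10.90 and 10.95 as lowest, median and highest of the T-cell mice (adjusted p = 0.107 by limma). Rpl38, whose loss of 1 copy alters the skeleton of mice, had 12.12, 12.10, 12.04 and 11.76 in erythroid mice and 12.22, 12.37 and 12.60 in the same order in T-cell mice (adjusted p = 0.19 by limma). In both genes the mice of each type lay close together and the distance between types was small.

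Some genes that did not pass varied most. Rps6, the substrate of S6 kinase, had the largest SD over the 12 mice at 1.46, with 9.85, 8.70, 8.50 and 4.80 in erythroid mice 2-3, 2-3-3, 5-5 and 2-3-2. In T-cell mice its lowest, median and highest signals were 8.77, 9.51 and 10.54 (change -1.61, adjusted p = 0.167 by limma). Its probe was detected on 4 of 5 erythroid arrays, and the lowest value was that of the array where it was not. Rpl6 showed the opposite picture. It had 8.78 in erythroid mouse 2-3-2, against 4.72 to 5.96 in the other erythroid mice, 5.21 in the undifferentiated mouse and 4.96, 5.50 and 7.59 as lowest, median and highest of the T-cell mice. The change of Rpl6 was 0.475 (adjusted p = 0.685 by limma), and -0.354 without the 2 weak arrays. The deposited intensity of its probe ran only from 102.6 to 216.9 over the 14 labelled arrays. It was detected on 3 of 5 erythroid and 7 of 8 T-cell arrays, so its values lie near the detection limit.

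At the other end, Rpl41, Rps24, Rpl3 and Rpl28 had an SD over the 12 mice of 0.147, 0.155, 0.158 and 0.172 after normalisation. Deposited intensities ran from 2344 to 7120 for Rpl41 and from 872.3 to 4835 for Rpl28 over the 14 labelled arrays. A small SD of normalised values is therefore not read as stable expression. Rpl41, the smallest ribosomal protein, averaged 12.25 ± 0.154 (SD, n = 4) in erythroid mice and 12.11 ± 0.136 (SD, n = 7) in T-cell mice. Rpl3, which helps to form the peptidyl transferase centre, averaged 12.67 ± 0.0611 (SD, n = 4) in erythroid mice and 12.78 ± 0.196 (SD, n = 7) in T-cell mice. The changes of both were within the spread between mice, at 0.143 and -0.115 (adjusted p = 0.638 and 0.719 by limma). That of Rpl3 turned to 0.259 under median scaling and 0.272 under cyclic loess. In the same order of settings, that of Rpl41 rose to 0.525 and 0.544 (adjusted p = 0.225 and 0.187 by limma). Rpl23 had no spread at 14.69 in all 12 mice, because quantile normalisation gives the brightest probe of each array the same value. Its deposited intensity ran from 16420 to 32550 over the 14 labelled arrays, and its next brightest probe had a change of -0.612 (adjusted p = 0.104 over all probes by limma). The brightest probe itself had 0.337 under median scaling and 0.33 under cyclic loess (adjusted p = 0.545 and 0.442 by limma), so Rpl23 had no settled direction.

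Role groups within the family were described by counts. Of all 56 members 19.6% were lower and 48 changes lay below 0, and nothing particular to a group is read from its count. Of the 3 measured proteins of the stalk only Rpl12 was lower. Rplp0, the stalk's scaffold, had a change of -0.371 (adjusted p = 0.547 by limma), and Rplp1, which binds to it, 0.166 (adjusted p = 0.75 by limma). The signs of Rplp0 and Rplp1 turned without the 2 weak arrays, to 0.0486 and -0.185. Of 8 exit tunnel genes 2 were lower, Rpl31 and Rpl39, and all 8 changes lay below 0 with a median of -0.57. The others of this list were Rpl19, Rpl22, Rpl35, Rpl38, Rpl17 and Rpl4, with changes of -0.664, -0.78, -0.473, -0.387, -0.179 and -0.184. Rpl4 turned to 0.215 without the 2 weak arrays.

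Of the human Diamond-Blackfan anemia genes 9 were measured, 3 were lower and all 9 changes lay below 0, with a median of -0.624. Of all 56 members 19.6% were lower and 48 changes lay below 0, and nothing particular to this list is read from its count. The 3 were Rpl31, Rpl27 and Rps10, of which Rpl27 alone passed without the 2 weak arrays. Those that did not pass were Rpl18 (-0.975), Rps7 (-0.624), Rpl35 (-0.473), Rps26 (-0.466), Rps19 (-0.427) and Rps24 (-0.172). Rps19, in which human Diamond-Blackfan mutations are most frequent, averaged 11.39 ± 0.412 (SD, n = 4) in erythroid mice and 11.82 ± 0.147 (SD, n = 7) in T-cell mice (adjusted p = 0.216 by limma). Rps24 turned to 0.19 when arrays were scaled by their median, where the median of all genes was 0.152, and to 0.206 under cyclic loess.

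Rpl22, which mouse T cells of the αβ lineage need and which is lost in some human T-cell leukemias, was the only measured gene of the list of ribosomal proteins altered in that disease. It had 6.22, 6.19, 6.08 and 4.75 in erythroid mice 5-5, 2-3, 2-3-3 and 2-3-2, 6.32 in the undifferentiated mouse, and 5.56, 6.83 and 7.11 as lowest, median and highest of the T-cell mice. The types overlapped, and the change of -0.78 did not pass (SE 0.363, adjusted p = 0.18 by limma). Its probe was detected on 3 of 5 erythroid arrays and on all 8 T-cell arrays. Rpl5 and Rpl11, which form the 5S ribonucleoprotein, were not analysed here.

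Several probes of 1 gene did not always give 1 answer. Of 72 probes 11 were lower and 0 higher, against a background of 6.21% of all probes called lower and 4.25% called higher, and 61 of the 72 changes lay below 0. Among 13 genes with several probes past the filter, 0 had all of them called and 2 had some called, Rpl29 and Rpl31. The dimmer probe of Rpl29 changed by -0.493 (adjusted p = 0.57 over all probes by limma) and that of Rpl31 by 0.281 (adjusted p = 0.633 over all probes by limma). The signs of the probes also differed in Rpl21, at -0.144 and 0.55, and Rpl23 had 1 probe at 0. Ribosomal protein genes have many near-identical pseudogene copies, and the probe sequences were not used here, so signal shared with such copies cannot be told apart from the genes' own.

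The family varied less between T-cell than between erythroid mice. The median SD of the 56 genes was 0.492 over erythroid mice and 0.223 over T-cell mice, where it was 0.567 and 0.411 over all genes. The SD was larger in erythroid mice in 49 of the 56 genes, and the like count over all genes was not taken. Leaving out Rpl23, mouse 2-3-2 was the lowest erythroid mouse in 30 genes and mouse 5-5 in 21, and mouse 2-3 was the highest in 36. Mice 2-3-2 and 5-5 are those with the weak arrays, and the wider erythroid spread is not read as a trait of the family. Among T-cell mice, mouse 5 was the highest in 29 genes and mouse 5-3 the lowest in 21. Over the 12 mice, the median Pearson r of 1485 pairs of these genes was 0.57 and 86.9% of pairs lay above 0, and over the 7 T-cell mice the median was 0.388. These correlations describe points that share arrays, array strength and, over 12 mice, the difference between types.

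The 2 mice with repeat arrays show how far 2 arrays of 1 mouse differed, though the second array of mouse 5-5 was 1 of the 2 weak arrays. In erythroid mouse 5-5 the second array lay below the first in 47 of 56 genes, with a median difference of -0.655 and a range of -2.45 to 0.626. Over all genes the median difference was -0.127. In T-cell mouse 5-1 the second array lay below the first in 41 genes, with a median of -0.166 and a range of -1.05 to 1.38, and over all genes the median was -0.019. The first array of mouse 5-5 detected 11580 probes and the second 7382, while the arrays of mouse 5-1 detected 12775 and 12435. The median difference between the arrays of mouse 5-5 was thus larger in size than the median change of -0.492 between types.

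**Figure D4:**
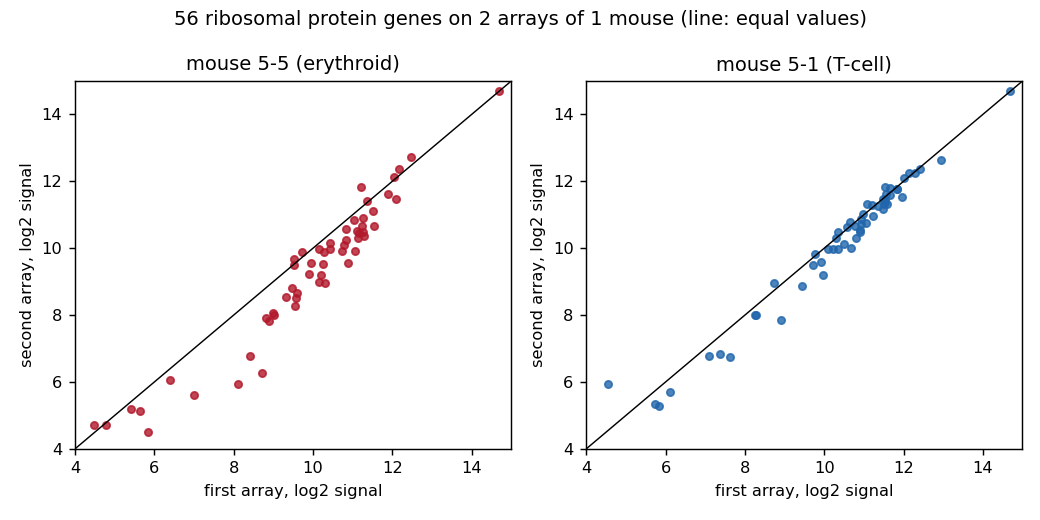
Log2 signal of the 56 ribosomal protein genes on the first (horizontal) and second (vertical) array of erythroid mouse 5-5 (left) and T-cell mouse 5-1 (right). The line marks equal values, and 47 genes lie below it in mouse 5-5 and 41 in mouse 5-1.

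The undifferentiated leukemia had a mean ribosomal protein signal within the T-cell range, while its T-cell and erythroid marker levels lay in the erythroid range. Against T-cell leukemias 0 of 56 genes passed by limma (0 at an unadjusted p under 0.05, where 7.2% of all genes passed), the background was 0.0191% of all genes, and the median change was -0.0399 against 0.0247 over all genes. The undifferentiated mouse lay within the T-cell range in 45 of the 56 genes (80.4%, against 69.2% of all genes), below it in 7 and above it in 4. Against erythroid leukemias 0 genes passed, and the background was 0.00955%. At an unadjusted p under 0.05, 3 of the 56 passed and 4.67% of all genes did, so the count was near the background. Those 3, named after their values were seen, were Rpl31 (1.16), Rps25 (1.00) and Rpl12 (0.886), all higher in the undifferentiated mouse at adjusted p = 0.938 by limma. Of the changes 50 lay above 0, with a median of 0.515 against 0.0182 over all genes. The undifferentiated mouse lay above every erythroid mouse in 22 genes (39.3%, against 20% of all genes). With 1 mouse, whose spread was assumed to be like that of the others, these contrasts have no replicate of their own, and the comparisons share mice with the one between erythroid and T-cell leukemias.

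Genes that serve the ribosome without being part of the family were counted for comparison. Over all genes 6.41% were called lower and 3.86% higher, and 28.1% had an unadjusted p under 0.05 by limma in either direction. Nothing particular to a list is read from these counts. Of 12 genes of RNA polymerase I transcription, which makes ribosomal RNA, 1 was lower. It was Znrd1, a subunit of the polymerase, at 7.77 ± 0.395 (SD, n = 4) in erythroid mice and 9.17 ± 0.468 (SD, n = 7) in T-cell mice (change -1.41, adjusted p = 0.0114 by limma). It passed in 22 of 26 alternatives, and was -1.12 without the 2 weak arrays (adjusted p = 0.0405 by limma). Taf1d, part of the promoter selectivity factor of that polymerase, had a change of -2.06 but an SD of 2.37 in erythroid mice (adjusted p = 0.0969 by limma). Of 65 ribosome biogenesis factors 0 passed by limma, 5 were lower at an unadjusted p under 0.05, and the median change was -0.19. Surf6, a nucleolar protein, came nearest at -0.905 (adjusted p = 0.0718 by limma).

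Of 32 translation initiation factors 1 was higher and 1 was lower. Eif4g1, the scaffold of the cap-binding complex, averaged 7.01 ± 0.561 (SD, n = 4) in erythroid mice and 6.10 ± 0.176 (SD, n = 7) in T-cell mice (change 0.914, adjusted p = 0.036 by limma). It did not pass under median scaling (0.776, adjusted p = 0.0585 by limma) or without the 2 weak arrays (0.644, adjusted p = 0.0547 by limma), and was 0.404 without background correction. Eif1b, a relative of the start-codon factor Eif1, averaged 7.05 ± 0.879 (SD, n = 4) in erythroid mice and 8.17 ± 0.246 (SD, n = 7) in T-cell mice (change -1.12, adjusted p = 0.0473 by limma). It passed in 8 of 25 alternatives, with -0.551 without the 2 weak arrays and adjusted p-values of 0.0277 to 0.253 by limma. Of 10 elongation and release factors 0 passed by limma, with 1 lower and 1 higher at an unadjusted p under 0.05. Those nearest were Eef2k, the kinase that stops elongation factor 2 (0.671, adjusted p = 0.0648 by limma), and Tpt1, whose message carries a 5′ TOP element (-0.807, adjusted p = 0.077 by limma).

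Of 15 regulators of TOR and 5′ TOP messages 0 passed by limma, with 2 lower and 1 higher at an unadjusted p under 0.05, and the median change was 0.101. Mtor, the kinase itself, averaged 6.85 ± 0.31 (SD, n = 4) in erythroid mice and 7.44 ± 0.305 (SD, n = 7) in T-cell mice (change -0.592, adjusted p = 0.114 by limma). The change was 0.00141 when the probes of a gene were averaged. Of 6 ribosome rescue genes 1 was higher, and all 6 changes lay above 0 with a median of 0.535. Over all genes 3.86% were called higher, 51.7% of changes lay below 0 and the median was -0.027. With 6 genes, nothing is read from the count. Gtpbp2, which in mice acts on ribosomes stalled on a codon, averaged 11.61 ± 0.61 (SD, n = 4) in erythroid mice and 10.42 ± 0.303 (SD, n = 7) in T-cell mice (change 1.19, adjusted p = 0.0216 by limma). It passed in 20 of 26 alternatives, and had an adjusted p = 0.0528 by limma without erythroid mouse 2-3-2. Without the 2 weak arrays the change of Gtpbp2 was 1.06 (adjusted p = 0.0478 by limma). Hbs1l, a partner in freeing stalled ribosomes, had a change of 0.691 (adjusted p = 0.0927 by limma).

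Of the paralogs and relatives outside the naming rule 0 of 4 passed by limma, with 1 lower at an unadjusted p under 0.05, and 3 changes lay below 0. Rack1, a scaffold on the small subunit, had a change of -0.429 (adjusted p = 0.155 by limma). Rpl22l1, the paralog of Rpl22, had -0.429 (adjusted p = 0.29 by limma) and Rpl36al had -0.319 (adjusted p = 0.287 by limma).

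**Figure D5:**
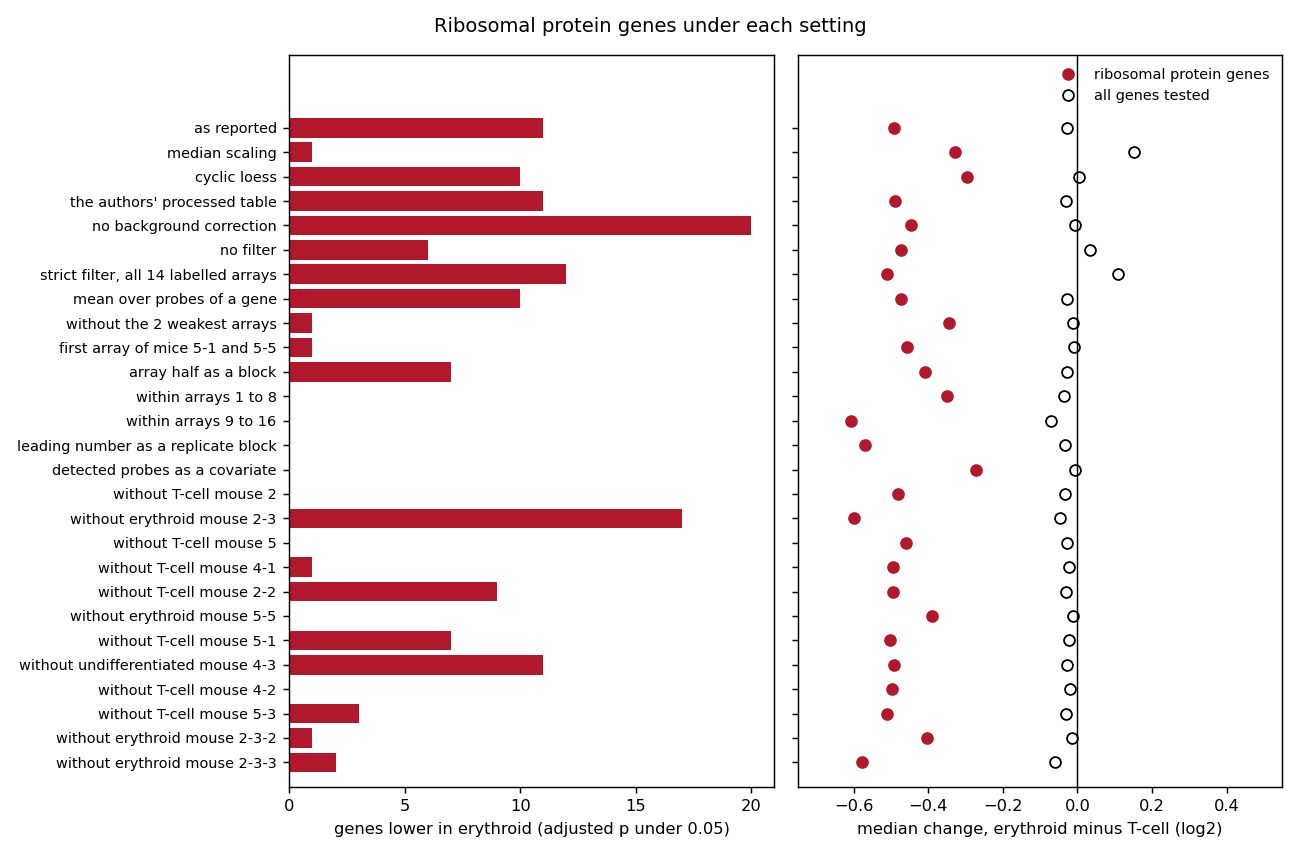
Ribosomal protein genes under each processing setting and with each mouse left out: number of genes lower in erythroid leukemias at an adjusted p under 0.05 (left) and median change, erythroid minus T-cell, on the log2 scale (right), for ribosomal protein genes (filled; 59 genes with no filter, 48 with the strict filter and 56 otherwise) and all genes tested (open). The count runs from 0 to 20, while the filled points lie left of 0 and left of the open points in every setting shown.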

How the data were processed

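The authors deposited a mean bead intensity for each probe and array without normalisation between arrays, with a detection p-value and, per the file headers, a bead standard error and a count of beads. No source used here names the software that summarised the beads. The authors also deposited processed values, on a log2 scale as judged from the intensities, for which the submitters' processing notes name limma together with R 3.0.2. Correlations of those columns with the normalised values below were at least 0.999978.

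Intensities and detection p-values of 15 arrays were normalised by the neqc function (limma 3.58.1, R 4.3.3: normexp, offset 16, quantile, log2). A probe was kept if at least 3 of 14 labelled arrays had a detection p under 0.05, arrays of a mouse were averaged, and the brightest probe stood for a gene. lmFit and eBayes were run on 12 mice with type as the only term, with two-sided p-values adjusted by Benjamini-Hochberg over 10474 genes. The number of arrays limits the precision. Symbols were updated through a RefSeq table (GRCm38.p6): 20733 probes were current, 3677 renamed (Rps3a became Rps3a1), 226 kept and 1061 unmatched. The code was tested on simulated data.

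Members, gene lists and tests were chosen with earlier results of these data known. Named were members that passed, lay just outside, belonged to a role list, were most or least variable, or had probes that disagreed, and up to 3 genes of each other list with the smallest adjusted p. Alternatives were other normalisations, filters and probe choices, splits by array number, a block, a covariate and leaving out mice or arrays. Among the genes that passed, 2 are counted but not reported here by name.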

Additional observations from a re-analysis of the deposited data

Results flagged for a closer look

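Single mice that stood apart from the rest of their type were looked for in 96 groups of values, of which 3 had such a mouse. Chance gives about 1 in 20 groups, so the count is not above what chance gives. The 3 are listed as values only. The Rpl31 signal was 11.39 in erythroid mouse 2-3 while the other erythroid mice had 10.36 to 10.49. The Rpl22 signal was 4.753 in erythroid mouse 2-3-2, whose array was 1 of the 2 weak ones, while the rest of its group had 6.078 to 6.22. The Mtor signal was 6.808 in T-cell mouse 5-3 and 7.337 to 7.68 in the other T-cell mice.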

How the results depend on the processing

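The count of 11 lower genes became 1 under median scaling (Rpl27) and 1 with the first array of mice 5-1 and 5-5 only (Rpl12). It became 20 without background correction, 6 without a filter, 7 with the array set (1 to 8 or 9 to 16) as a block and 1 without the 2 weakest arrays (Rpl27). It became 0 within arrays 1 to 8, 0 within arrays 9 to 16, 0 with the leading title number as a replicate block and 0 with detected probes as a covariate, where 8, 15, 24 and 11 genes had an unadjusted p under 0.05 by limma. Without single mice it ran from 0 to 17. Within arrays 1 to 8 no gene of all 10474 passed. The share of all genes called lower was 6.41% as reported, 4.11% under median scaling, 5.51% with first arrays only, 5.7% without background correction, 2.15% without a filter, 6.2% with the array set as a block, 1.29% within arrays 9 to 16 and 0.936% with the replicate block. The cause of each move was not tested. The median change stayed below 0 in every alternative, from -0.607 within arrays 9 to 16 to -0.273 with the covariate. The 11 genes kept a change below 0 in all 26 alternatives that gave them a value, and each passed in 7 (Rps13) to 14 (Rpl12). Leaving out the undifferentiated mouse repeated the reported fit of this contrast exactly, with 11 lower genes. The authors' processed values were nearly the same as those used here and also gave 11. Passes under these alternatives were fixed or nearly fixed in advance, here and in the counts for Znrd1, Gtpbp2 and Eif1b.

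The labels do not say that the leading number pairs mice. Same-number mice of different type had a median r of -0.000175 over 9 pairs, against 0.0236 over 19 pairs of different number. Mice of the same type were not paired in this comparison, so it cannot show whether they are related, and no conclusion is drawn from it. The block gave a median change of -0.569.

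Signs turned only in genes that did not pass. Under median scaling Rpl3 was 0.259, Rps24 0.19 and Rpl21 0.252, and under cyclic loess they were 0.272, 0.206 and 0.0838. With probes averaged Rpl21 was 0.203 and Mtor 0.00141. Without the 2 weakest arrays Rpl6 was -0.354, Rplp0 0.0486, Rplp1 -0.185, Rpl4 0.215 and Rpl21 0.152. With first arrays only Rpl4 was 0.00265, and with the array set as a block Rplp1 was -0.00365. Within arrays 1 to 8 Rpl6 was -0.051, Rpl41 -0.0229, Rplp1 -0.375 and Rpl4 0.164, and within arrays 9 to 16 Rpl3 was 0.0599, Rpl17 0.111 and Rpl21 0.0531. With the covariate Rpl6 was -0.778, Rplp0 0.0924, Rplp1 -0.146, Rpl4 0.0618 and Rpl21 0.573. With 1 mouse left out, Rpl6 ran from -0.387 to 0.966, Rplp1 from -0.0811 to 0.392 and Rpl21 from -0.389 to 0.142, with turned signs without erythroid mouse 2-3-2 for all 3 and without mouse 5-5 for Rpl21 (0.0351).

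Precision is limited by 4 erythroid mice. On simulated data for this contrast, run on 10474 genes, 18% of changes of 1 and 77% of changes of 2 on the log2 scale were called. The simulation changed 100 genes by each size and gave all types the same spread. In the data 1075 genes were called, and the median SD over all genes was 0.567 in erythroid and 0.411 in T-cell mice. The shares therefore describe the simulated setting and do not carry over to these data.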

Other observations

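The array without a mouse or type label had a mean log2 signal of 9.669 over the 56 ribosomal protein genes, with 10840 probes detected. Its ribosomal protein probes made up 3.2% of the summed background-corrected intensity, and the median gene lay at percentile 97.3. On single arrays, the beads of a ribosomal protein probe had a median standard error of 3.41% of the signal over a median of 39 beads, and 47 of the 56 genes were detected on all 14 labelled arrays.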
